A study of Schizosaccharomyces pombe with 2 samples.

Results

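The genes of the fission yeast cohesin and condensin complexes were compared between a wild-type strain and a strain labelled as subtelomere-deleted. The set holds 10 genes, chosen by name: the subunits of mitotic cohesin (rad21, psm1, psm3 and psc3), the cohesin loader subunit mis4, the cohesin regulator pds5, and the condensin subunits cut3, cut14, cnd1 and cnd2. Each was found by symbol or synonym among the reference genes and matched to its probe set by gene identifier. All 10 were present among 2865 Schizosaccharomyces pombe genes with a name and a ratio. Messenger RNA was measured on 1 array per strain. The wild-type was strain JP1225 and the other was strain ST3479, labelled SD5 and described as subtelomere-deleted, both of mating type h-. Both were growing exponentially when harvested from YES, a rich medium based on yeast extract, at 32 °C. The sources used here give neither the subtelomeres that SD5 lacks nor other differences between the genomes of the strains. With 1 array per strain there was no replicate error, no test was made, and each ratio below describes these 2 arrays.

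Cohesin and condensin are ring-shaped complexes built around a pair of SMC proteins, long coiled-coil ATPases whose heads are bridged by a kleisin subunit and whose function is tuned by further subunits with HEAT repeats. Cohesin holds sister chromatids together from DNA replication until anaphase, when separase cuts the kleisin Rad21, while condensin compacts chromosomes for mitosis. In fission yeast cohesin is concentrated at heterochromatin, where the HP1-type protein Swi6 recruits its Psc3 subunit, and heterochromatin is a hallmark of subtelomeres as well as of centromeres. The question of the comparison is how transcript levels differ between the wild-type and the subtelomere-deleted strain.

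The labels were checked at the chromosome ends. The 7 named genes that SD5 had at least 2-fold lower were all among the 24 protein-coding genes nearest to an end of chromosome I or II in the reference order. One of them was nhe1, the gene of the sodium/proton antiporter, at 2611 in wild-type cells and 17.3 in SD5. The background of an array was the 95th percentile of 79 control and reporter probe sets that match no S. pombe transcript, 17.7 for wild-type and 26.6 for SD5. Each log2 ratio has SD5 over wild-type as its direction and was centred by subtracting the median over probe sets above background on both arrays, -0.20 (0.869-fold). The actin control probe sets had 3′ to 5′ signal ratios of 2.18 for wild-type and 2.33 for SD5, and the part of this difference in the ratios below was not tested.

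No cohesin or condensin gene differed 2-fold between the arrays, which held for nearly all named genes as well. Of the 10 genes, 0 were at least 2-fold lower and 0 at least 2-fold higher in SD5, beside 0.244% of named genes that were lower and 0.0349% that were higher. Those shares include named genes below background in 1 array. Of the 2851 named genes above background in both arrays, as the 10 were, 0 were 2-fold lower and 1 was higher. By this count the 10 genes do not stand apart. Of all S. pombe probe sets with a ratio, named or not, 0.815% were lower and 0.0612% higher. After centring, the log2 ratios ran from -0.29 for cnd1 to 0.25 for psm1, with a median of 0.13, beside 0.00 over the 2851 named genes measured in both arrays. Of the 10 ratios, 7 were above 0 and 3 below, and of the 2851 named genes 1443 were above 0 and 1408 below. The signals were well above background, from 15.5 to 74.6 times in the wild-type and from 9.16 to 35.2 times in SD5, so none of the ratios is a bound. Each gene had 1 probe set, and none was of the kind marked as matching more than 1 gene. In a culture of cells at all stages of the cell cycle, a different share of cells at the stage that transcribes a gene and a different amount of RNA per cell cannot be told apart.

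**Figure D1:**
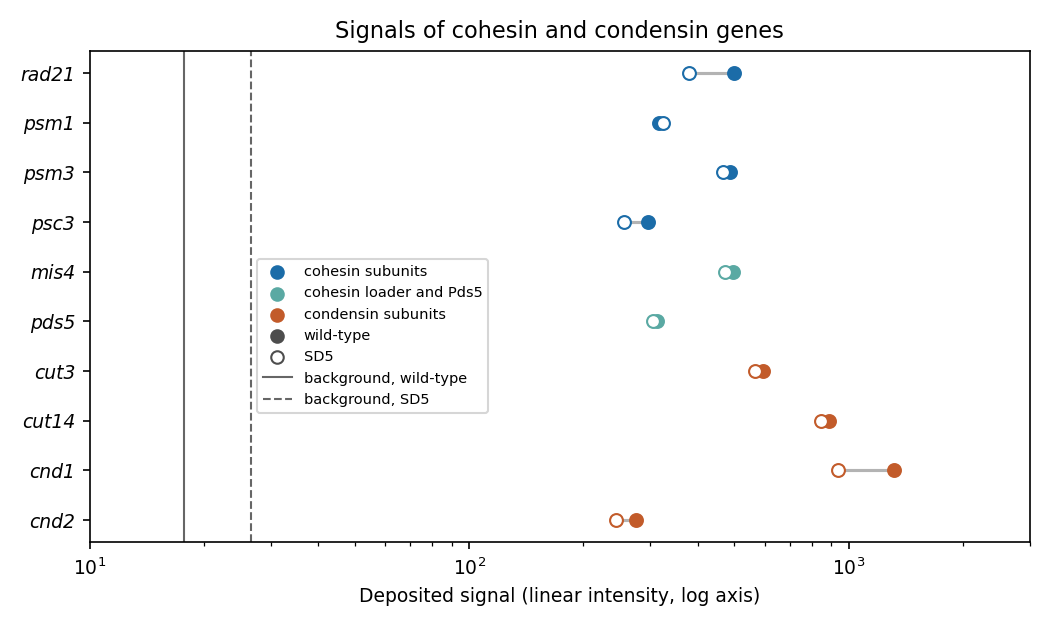
Deposited signal (linear intensity on a log axis) of the 10 genes in the wild-type array (filled) and in the SD5 array (open), before centring, with 1 array per strain and no error bars. The vertical lines are the backgrounds of 17.7 and 26.6; cnd1 and rad21 have the widest gaps between the arrays, and psm1 is the only gene with the higher deposited signal in SD5.

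Among the core cohesin genes, the log2 ratios of the subunits ran from -0.19 to 0.25. The gene psm1 (SPOM_SPBC29A10.04), which encodes the Smc1-type ATPase, gave signals of 315 (wild-type) and 325 (SD5), a centred log2 ratio of 0.25. It was the only one of the 10 whose deposited signal was higher in SD5 before centring, and 82 of the 2851 named genes had a higher ratio. Its Smc3-type partner psm3 (SPOM_SPAC10F6.09C), the subunit that is acetylated when cohesion is established, had 488 and 466, a log2 ratio of 0.14.

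The kleisin gene rad21 (SPOM_SPCC338.17C), whose product closes the cohesin ring and is the target of separase, gave 499 in wild-type cells and 378 in SD5. Its log2 ratio of -0.19 was just inside the 5th percentile of named genes, -0.21, and 166 named genes had a lower one. The gene psc3 (SPOM_SPAC17H9.20), which encodes the HEAT-repeat subunit that Swi6 binds, had 296 and 255, a log2 ratio of -0.01. The pair psm1 and rad21 lay 0.44 apart on the log2 scale, a 1.36-fold difference between their ratios. This difference is unaffected by centring.

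The loader gene mis4 and the regulator gene pds5 had ratios close to each other. The gene mis4 (SPOM_SPAC31A2.05C) encodes the Scc2-type subunit that loads cohesin onto DNA, and gave signals of 497 and 473 in wild-type and SD5 cells (log2 ratio 0.13). The gene pds5 (SPOM_SPAC110.02) encodes a HEAT-repeat protein that binds the ring and controls how long it stays on DNA, and had 313 and 304 (0.16). Over the cohesin subunits, mis4 and pds5 together, the median log2 ratio was 0.13, with 4 of 6 genes above 0, beside 1443 of the 2851 named genes. Without centring this median was -0.069.

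Among the condensin genes, the ratios of both SMC genes were slightly above 0 and that of cnd1 was below it. The gene cut14 (SPOM_SPBP4H10.06C), which encodes the Smc2-type ATPase, gave 885 in wild-type cells and 843 in SD5 (log2 ratio 0.13). Its partner cut3 (SPOM_SPBC146.03C), the Smc4-type ATPase gene, had 593 and 567 (0.14). The ratios of this pair differed by 0.0060 on the log2 scale.

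The gene cnd1 (SPOM_SPBC776.13), which encodes a HEAT-repeat subunit of condensin, had the lowest ratio of the set, with signals of 1319 in wild-type cells and 935 in SD5 (log2 ratio -0.29, 1.23-fold lower). Of the named genes, 54 had a lower ratio. The kleisin gene cnd2 (SPOM_SPCC306.03C), called barren in the fly, had 275 and 244 (log2 ratio 0.03). The condensin genes had a median log2 ratio of 0.08, with 3 of 4 above 0, beside 1443 of the 2851 named genes. Without centring this median was -0.12. The ratio of cnd1 lay 0.43 below that of cut14.

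Split by protein class, a split chosen after the values were seen, the 4 SMC genes of cohesin and condensin had log2 ratios from 0.13 to 0.25. The other 6 genes spread from -0.29 to 0.16, with 3 above and 3 below 0. The kleisin genes rad21 and cnd2 had log2 ratios of -0.19 and 0.03, and this difference was not tested. The SMC genes of the related Smc5-Smc6 complex, smc5 and smc6, were both near 0 (log2 ratios of 0.01 and -0.01).

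The ratios of the 10 genes were also set against smaller thresholds. A threshold of 1.1-fold, set after the values were seen, was passed by 2 of the 10 genes in the lower direction (rad21 and cnd1), beside 11.3% of named genes. In the higher direction it was passed by 3 genes (psm1, pds5 and cut3), beside 9.89% of named genes. It lies close to several ratios: cut3 was just past it at 0.139, while psm3 (0.135), mis4 (0.133) and cut14 (0.133) were just short of it. Among the 250 probe sets nearest in signal to each gene, the robust SD of the log2 ratio was between 0.094 and 0.155. That is a spread between probe sets of this pair of arrays and not a replicate error. By this scale 6 of the 10 genes were over 1 robust SD above the median of probe sets of like signal, beside 17.3% of named genes, and 2 were over 1 robust SD below it, beside 15.7%. The counts past 1 robust SD were not among the planned results. Genes are not replicates, and 1 pair of arrays gives no error for these counts.

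**Figure D2:**
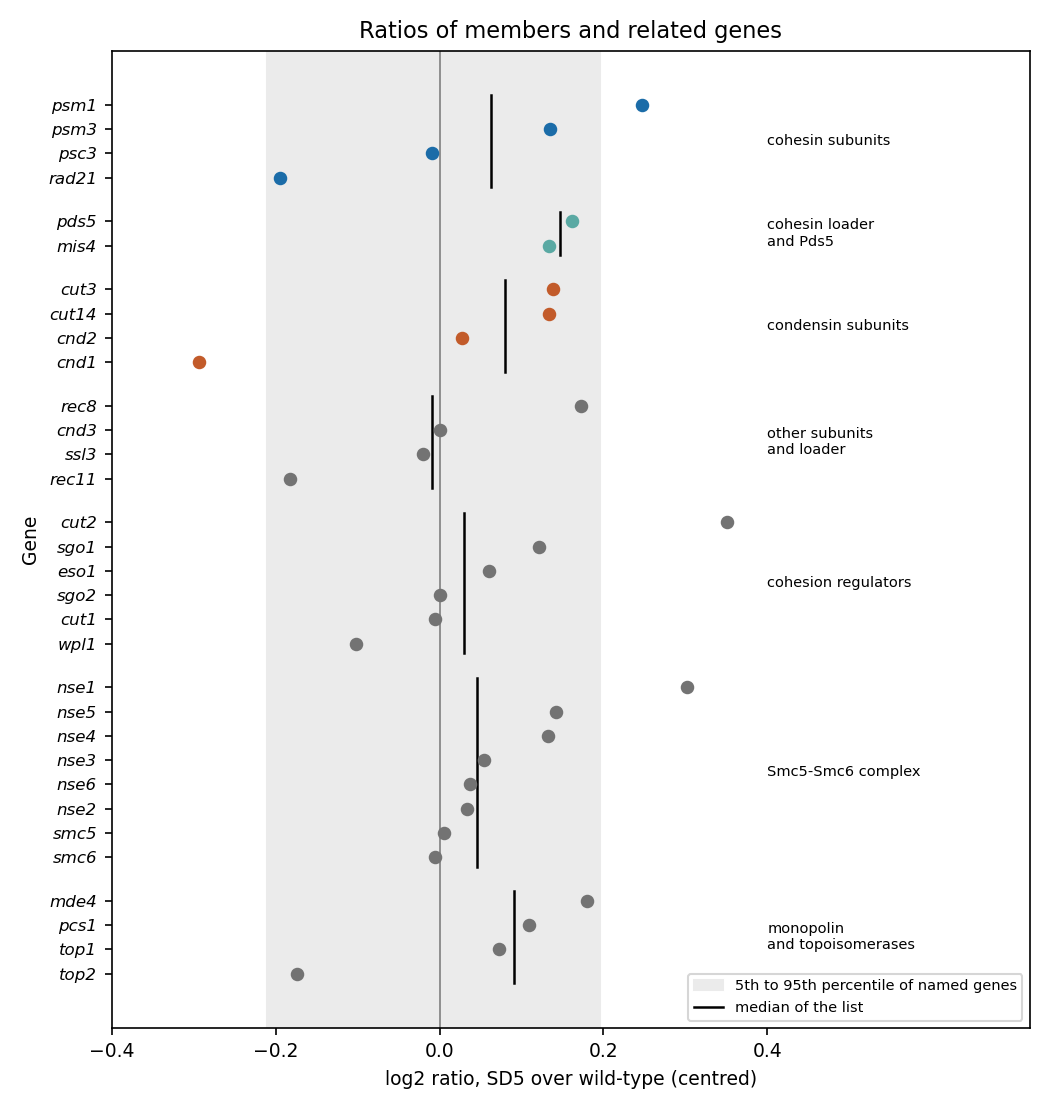
Centred log2 ratio of SD5 over wild-type for the 10 cohesin and condensin genes (coloured) and for 22 related genes in 4 lists (grey), 1 point per gene from 1 array per strain, with the median of each list as a black line. The shaded band runs from the 5th to the 95th percentile of the 2851 named genes (-0.21 to 0.20); among the 10, psm1 lies above it and cnd1 below it.

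All 22 genes of the related lists were measured above background in both arrays, and 0 of them were at least 2-fold lower or higher. Of the 2851 named genes so measured, 0 were 2-fold lower and 1 was higher. Their median log2 ratio was 0.05, and they ran from -0.18 to 0.35. Of the 22, 16 were above 0 and 6 below, beside 1443 above and 1408 below among the 2851 named genes. Some of those above 0 were barely so, such as cnd3 (0.0006), sgo2 (0.0004) and smc5 (0.006). The direction rests on the scaling here too: without centring all but cut2 (0.15) and nse1 (0.10) were below 0.

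The list of other subunits and loader genes had a median of -0.01 over 4 genes. In it, ssl3, the gene of the partner that loads cohesin together with Mis4, gave signals of 1341 and 1149 in wild-type and SD5 cells (log2 ratio -0.02), against 0.13 for mis4. The remaining condensin HEAT-repeat gene cnd3 had 518 and 450 (0.00), against -0.29 for cnd1. The meiotic kleisin gene rec8 had 50.1 and 49.1 (0.17), and rec11, the meiotic counterpart of psc3, had 109 and 83.8 (-0.18). Both meiotic genes were dim, rec8 at 2.83 times background in the wild-type and 1.84 times in SD5, where the robust SD of probe sets of like signal was 0.325. Their ratios moved with the processing, for rec8 to 0.56 after quantile normalization and 0.34 with the background as a pseudocount, and for rec11 to -0.03 and -0.02. Without centring they were -0.03 for rec8 and -0.39 for rec11.

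Of the 6 cohesion regulators, the securin gene cut2 had the highest ratio. It was also the highest of all 32 genes in the main processing, while after quantile normalization rec8 was higher. The product of cut2 inhibits separase until anaphase, and its signals were 429 for wild-type and 475 for SD5 (log2 ratio 0.35, with 41 named genes higher). The separase gene cut1 had 767 and 663 (-0.01). The gene wpl1, which encodes the factor that releases cohesin from DNA, had 688 and 557 (-0.10), and eso1, whose product acetylates Psm3, had 1089 and 986 (0.06). The shugoshin gene sgo1, which protects meiotic cohesin at centromeres, had 422 and 399 (0.12). Its paralogue sgo2, whose product also binds subtelomeres, had 432 and 375 (0.00).

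The Smc5-Smc6 complex, which acts in DNA repair, had a median of 0.05 over 8 genes. Of these, 7 were above 0, beside 1443 of the 2851 named genes. Without centring nse1 (0.10) was the only gene of the complex above 0. The RING-domain subunit gene nse1 was highest, with 1013 for wild-type and 1085 for SD5 (log2 ratio 0.30), followed by nse5 (0.14) and the kleisin gene nse4 (0.13). The SUMO ligase gene nse2 (0.03), nse6 (0.04) and nse3 (0.05) were closer to 0.

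In the list of monopolin and topoisomerases, the monopolin gene mde4 had 910 and 896 (0.18) and its partner pcs1, now called csm1, had 1920 and 1798 (0.11). The gene of topoisomerase II, top2, whose product untangles sister chromatids beside condensin, had 749 and 577 (-0.17), and top1 had 1053 and 962 (0.07).

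None of the 10 genes lies next to a chromosome end. In the order of protein-coding genes of the reference assembly ASM294v3 the nearest to an end was cnd2, the 146th gene from the left end of chromosome III, and mis4 was the 159th counted from the left on chromosome I. The gene rad21 was 429th from the right end of chromosome III, psm1 837th and cnd1 552nd from the right end of chromosome II. The set is spread over the genome, with 4 genes on chromosome I, 4 on II and 2 on III. The nearest of the 22 related genes was eso1, 92nd from the right end of chromosome II, with a log2 ratio of 0.06.

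**Figure D3:**
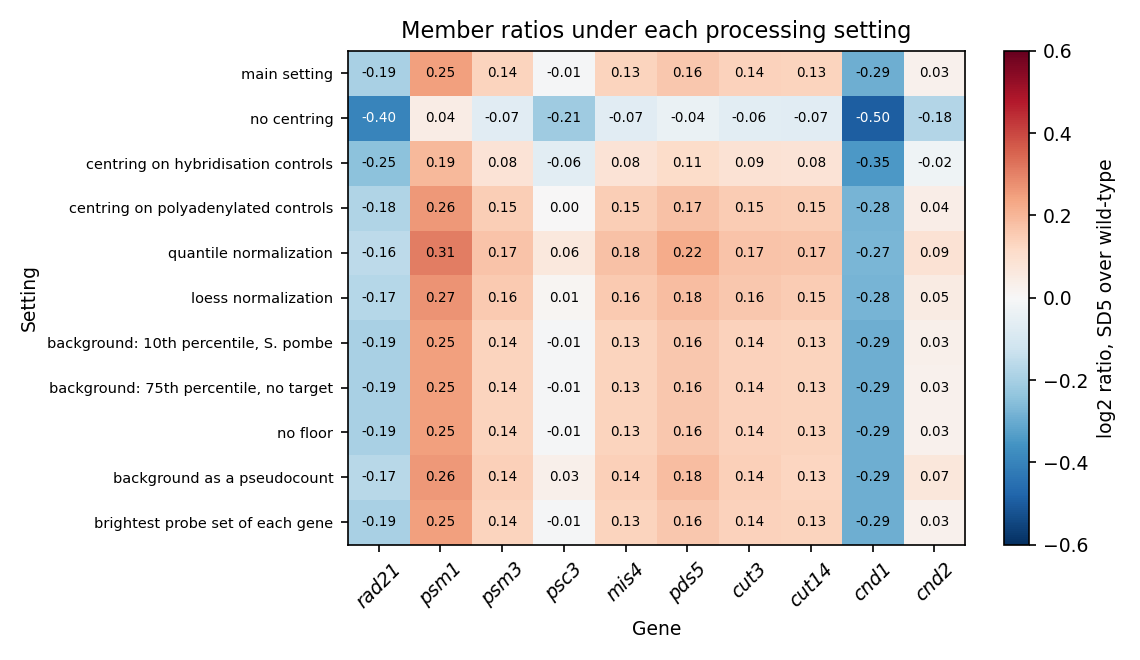
Log2 ratio of SD5 over wild-type for each of the 10 genes (columns) under the main processing and 10 alternatives (rows), with the value printed in each cell and red for higher in SD5. In each row cnd1 is lowest, rad21 next and psm1 highest, while the row without centring lies lower for all 10 genes.

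The order of the outer genes was the same under the 10 alternatives to the processing. In each, cnd1 had the lowest ratio, rad21 the next and psm1 the highest. Most of the alternatives could not have changed this order. The centring choices shift all genes alike. The other background levels, no floor and the brightest probe set left the differences between the 10 genes as they were. Only quantile normalization, loess normalization and the pseudocount could alter the order. The difference between psm1 and rad21 stayed between 0.43 and 0.46 on the log2 scale, and that between cut14 and cnd1 between 0.42 and 0.44. The direction of small ratios rests on the scaling: without centring 9 of the 10 genes were below 0, all but psm1 (0.04).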

How the data were processed

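For each of 2 arrays the authors deposited a linear intensity for every probe set. Per the labels' protocols, polyadenylated RNA was amplified and biotinylated by a 3′ IVT kit, which favours transcript 3′ ends. The submitters' processing notes name GCOS 1.4 without its role. How probes were summarised, scaled and masked is not stated there. Of 10928 rows, 5748 were 0 in both arrays and left out, and 4999 of the 5180 others were S. pombe probe sets.

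Of 5538 probes in the platform's table, 5518 had 1 symbol and 20 several; 5390 array rows had none. In all, 2914 probes matched 2896 genes of ASM294v3 by gene identifier. Before log2, any signal under background was raised to it. Probe sets of 1 gene were averaged, and a call is 2-fold. The calculation was tested on simulated data with added differences of more than 2-fold. These were larger than any seen for the members or related genes, so the test does not cover ratios as small as theirs. Calculations used Python 3.11.15, numpy 2.4.6, pandas 2.3.3 and statsmodels 0.14.6.

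Named genes, in shares and ranks, are all those with a gene name from the table; values are given for the 10 members and all genes of 4 related lists, and for nhe1 as a check of the labels. The members, lists, tests and alternatives were chosen with earlier results of these data known. No sequences are shown.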

Additional observations from a re-analysis of the deposited data

How the results depend on the processing

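Counts of genes at least 2-fold lower or higher stayed at 0 for the 10 genes and for the related genes with a ratio under the 10 alternatives. These were 22 related genes, except with the 10th percentile of S. pombe signals as background, where rec8 and rec11 gave no ratio and 20 were left. Without centring, the median log2 ratio was -0.070 over the 10 genes, -0.069 over the cohesin subunits, mis4 and pds5, and -0.12 over the condensin genes, because the shift of -0.20 of all probe sets is then kept. Relative to the median of all named genes under the same setting, the 10 genes' median stayed between 0.13 and 0.16 over the alternatives. The centring choices shift the 10 genes and the named genes alike, so they could hardly move this difference. It was 0.16 after quantile normalization and after loess normalization, and 0.13 with the background as a pseudocount. Of 100 single values of the 10 genes under alternatives, 90 moved by less than the robust SD of probe sets of like signal, and the other 10 were those without centring. After quantile normalization rec8 had a log2 ratio of 0.56, above that of cut2 (0.39). Over all S. pombe probe sets, 40 were 2-fold lower and 3 higher, against 33 and 14 after quantile normalization, 14 and 0 with these probe sets' own 10th percentile as background, 58 and 12 with the 75th percentile of control and reporter probe sets, and 73 and 23 with no floor. Centring on 36 added polyadenylated control probe sets and the 1.1-fold threshold were chosen after seeing the data. All 10 genes were above background in both arrays with 1 probe set each, so the settings for the floor and for several probe sets could hardly move them. No paired analysis was possible because each strain had 1 array, and for the same reason no array could be left out.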
